A study of Rattus norvegicus with 3 samples.

Results

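Poly(I:C), a synthetic RNA duplex that imitates viral RNA, was compared with saline over the whole rat brain and over every gene with enough reads, without sorting nuclei into cell classes. The animals were wild-type Crl:CD(SD) rats, all female and 12 weeks old. They received saline, poly(I:C) at 12 mg/kg or lipopolysaccharide (LPS), a bacterial cell wall component, at 5 mg/kg into the abdominal cavity, and brains were taken 7 h later. Nuclei of 4 animals were pooled into 1 library per treatment, read with a droplet method that captures the 5' end of transcripts and counts unique molecules (UMIs). All barcodes with at least 500 detected genes were used, which gave 21343 of 25435 saline barcodes with 33256195 UMIs and 13116 of 15001 poly(I:C) barcodes with 20332666 UMIs. UMIs were summed per gene and scaled to counts per 1000000 UMIs of the library (CPM). Of 30560 listed features, 15012 had at least 30 UMIs over both libraries and were compared. The LPS library (10491 kept barcodes, 29353560 UMIs) is given only as a level beside the others, since it shares the saline library as its control.

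Double-stranded RNA is sensed at endosomes by Tlr3 and in the cytosol by Ifih1 and by the product of Ddx58. These sensors switch on type I interferons, which act through the receptor chains Ifnar1 and Ifnar2 and a complex that holds Stat2 and Irf9. That complex binds the interferon-stimulated response element, a repeat of GAAA, in the promoters of antiviral genes. Brain endothelial cells line the vessels, form the blood-brain barrier and carry many transporters, so they are among the first brain cells that a signal in blood can reach.

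With 1 library per treatment, no difference has a replicate check, and no significance test was possible. Intervals in brackets are exact 95% intervals of the ratio for counting error alone, and they include neither animal nor preparation. In a sum over all nuclei, fewer cells of a type and less RNA per cell cannot be told apart. The median kept barcode held 1321 UMIs after saline and 1369 after poly(I:C), and mitochondrial UMIs were 0.0766% and 0.0441% of the total. Syt1, which neurons use to release transmitter, was detected in 93.4% and 94.5% of kept barcodes, and the 5 general neuron markers summed to 5477 and 5832 CPM. Barcodes with Syt1 held 96.0% and 96.5% of all UMIs. In all, 418 barcode sequences occurred in both libraries, which was 1.96% of the saline and 3.19% of the poly(I:C) barcodes.

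Promoters of 7 of the leading higher genes that hold the response element are shown first, since it was more frequent among the higher genes than over all genes. Several of the highest genes, Cxcl11 and Cxcl9 among them, lack it in the searched window. The windows are from RefSeq (assembly GRCr8, which is not the build of the count tables), each 5′ to 3′ on the gene's strand, ending no later than the gene's start. Capitals mark the core of the interferon-stimulated response element (GAAA, any 2 bases, GAAA), read on the printed strand or as its reverse complement.
Cxcl10, chr14:15988816-15988867, plus strand: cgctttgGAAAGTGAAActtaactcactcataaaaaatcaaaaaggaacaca
Rsad2, chr6:48788223-48788302, minus strand: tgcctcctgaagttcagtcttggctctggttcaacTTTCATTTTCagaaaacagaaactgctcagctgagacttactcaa
Gbp2, chr2:234005661-234005726, plus strand: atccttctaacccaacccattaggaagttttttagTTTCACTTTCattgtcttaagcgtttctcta
Ifit3, chr1:241527247-241527325, plus strand: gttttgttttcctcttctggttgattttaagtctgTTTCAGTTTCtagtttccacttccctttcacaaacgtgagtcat
Irf7, chr1:205800048-205800127, minus strand: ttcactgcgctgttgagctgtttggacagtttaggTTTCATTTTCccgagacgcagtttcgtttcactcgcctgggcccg
Oas1a, chr12:41330396-41330465, plus strand: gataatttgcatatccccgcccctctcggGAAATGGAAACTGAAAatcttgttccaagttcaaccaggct
Oas1i, chr12:41285161-41285225, plus strand: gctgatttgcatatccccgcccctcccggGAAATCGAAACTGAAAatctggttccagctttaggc

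The capitals of Oas1a and Oas1i span 2 overlapping matches. Across the table, 250 bases before to 50 bases after each gene's start were searched on both strands. Of the genes at least 4-fold higher after poly(I:C), 110 symbols gave 69 with a promoter, and 32 of these (46.4%) held that core. The share was 29.4% for genes at least 2-fold higher (47 of 160), 3.11% for genes at least 2-fold lower (7 of 225) and 2.84% for all compared genes (292 of 10292). Over all 27457 promoters in the table it was 3.77%. For TTCNNNGAA, the gamma-activated site, the shares were 21.7%, 15%, 8% and 6.51% in the same order. For the NF-kB core (GGG, any 2 bases, TTTCC) they were 4.35%, 3.13%, 2.67% and 1.62%. Of the 25 genes with the highest lower bounds, 23 have a symbol that names 1 feature. Of these 17 had a promoter in the table and 11 held the core. Cxcl11, Cxcl9, Mx1, Asb15, Oasl and Rnf213 did not hold it in this window, nor did Slfn4, whose symbol names more than 1 feature. A match only describes these letters, and motifs outside the window were not searched.

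Over the whole table, few genes differed, and the largest ratios were those of interferon-induced chemokines and antiviral effectors. In all, 260 genes (1.73% of those compared) were at least 2-fold higher after poly(I:C) and 375 (2.5%) were at least 2-fold lower. The whole counting interval lay past 2-fold for 149 higher genes (0.993%) and for 72 lower genes (0.48%). At 1.5-fold there were 463 higher genes (3.08%) and 1208 lower genes (8.05%), and 635 genes (4.23%) differed at least 2-fold either way. At 4-fold there were 113 higher genes (0.753%) and 73 lower genes (0.486%), and at 8-fold 67 (0.446%) and 16 (0.107%). The order of the 2 directions thus depended on the fold: lower genes were more numerous at 2-fold and higher genes at 4-fold. The median log2 ratio over all genes was -0.09, with quartiles of -0.26 and 0.05. Together the 260 higher genes summed to 524.4 CPM after saline and 2922 after poly(I:C), while the 375 lower genes summed to 2028 and 712.2 CPM.

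**Figure D1:**
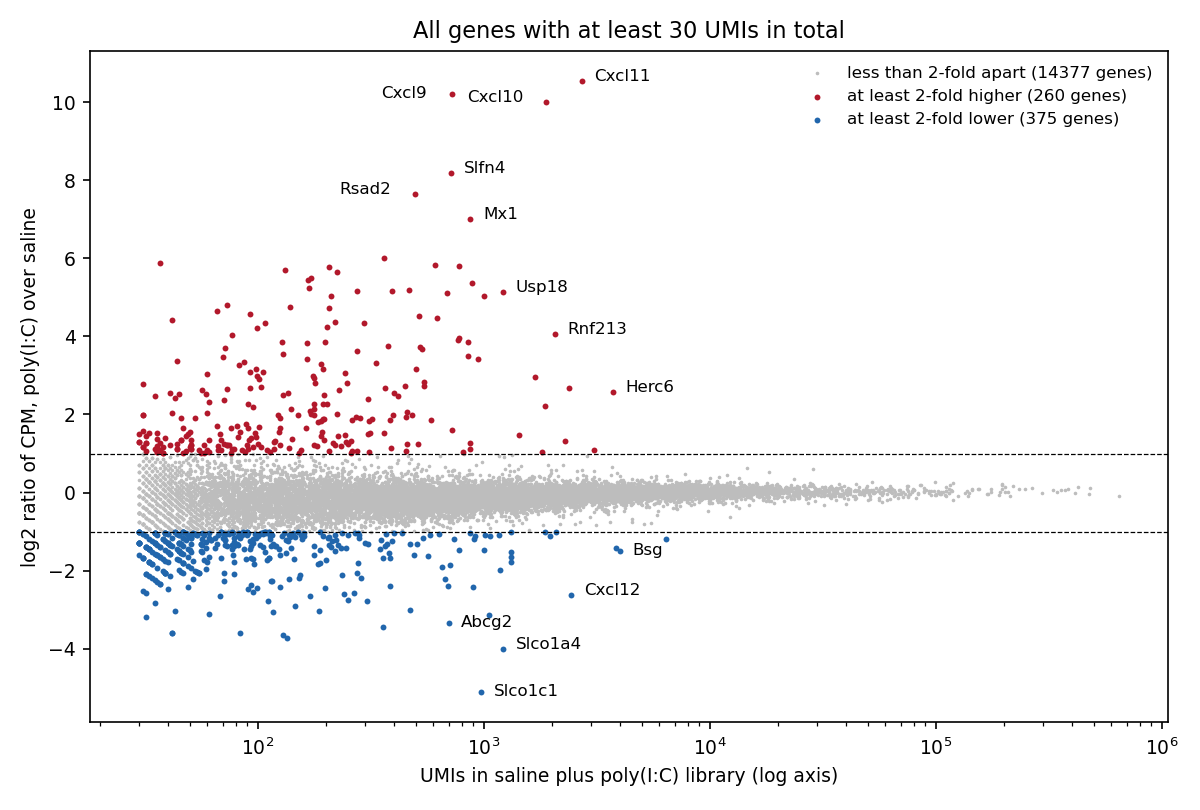
Log2 ratio of CPM (poly(I:C) over saline) of each of 15012 genes against its UMIs in both libraries (log axis); dashed lines mark 2-fold. The 260 higher genes (red) reach ratios above 1000, the 375 lower genes (blue) crowd at low UMI numbers, and no gene with at least 10000 UMIs passes 2-fold.

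Lower genes were concentrated among those with few UMIs, where counting error is largest. Of the 2243 genes with 30 to 100 UMIs, 111 passed 2-fold upward and 234 downward. Among the 5666 genes with 1000 to 10000 UMIs these numbers were 13 and 18, and among the 942 genes above that, 0 and 0. At the minimum, the 53 genes with exactly 30 UMIs held 3 higher and 10 lower genes, and the 64 genes with 29 UMIs, just left out, held 6 and 10. A further 7147 features had between 1 and 29 UMIs and 8401 had none. A gene with fewer than 30 saline UMIs could be compared only through its poly(I:C) UMIs. Counts of higher members in the gene lists below therefore follow in part from the minimum. With a minimum of 100 UMIs, 149 genes passed 2-fold upward and 141 downward.

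The 31 called genes with at least 1000 UMIs are the best counted, and this set was formed after the values were seen. The 13 higher ones were Cxcl11, Cxcl10, Usp18, Ifi44, Rnf213, Eif2ak2, Stat4, Herc6, Samd9, Stat2, B2m, Mitd1 and the clone-named AABR07066700.1. The 18 lower ones were the vessel and barrier genes Slco1a4, Itm2a, Cxcl12, Abcb1b, Bsg, Slc2a1 and Rgs5, the lipid carriers Apoe and Pltp, the mitochondrial transcripts Mt-cyb and Mt-nd4l, and Cst3, Sparc, Selenop, Cyyr1, Ccdc141, Hmcn1 and Mecom. Apoe, which carries lipid between glia and neurons, stood at 43.3 CPM after saline, 30.8 after LPS and 21.4 after poly(I:C), 2.02-fold lower [1.82 to 2.26]. Pltp, a phospholipid transfer protein, was at 33.8 CPM after saline and 9.89 after poly(I:C), 3.42-fold lower [2.94 to 3.997]. Sparc, a matrix protein, was at 46.0 and 21.3 CPM, 2.16-fold lower [1.94 to 2.41].

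The 3 ligands of Cxcr3, the chemokine receptor of activated T cells, had the highest ratios of all genes. Cxcl11 had 0 UMIs after saline, 973 after LPS and 2729 after poly(I:C). Cxcl10 had 0, 244 and 1890, and Cxcl9 had 1, 647 and 722. Counting 3 UMIs for the empty saline library, Cxcl11 was at least 1488-fold and Cxcl10 at least 1030-fold higher, with lower counting limits of 1209 and 837.2. Cxcl9 was 1181-fold higher [211 to 46710] from a single saline UMI. These 3 genes are neighbours in RefSeq order. The gene on one side of them, Art3, was at 1.30-fold [1.11 to 1.53] and that on the other, Sdad1, at 0.893-fold [0.7998 to 0.9972]. Ccl5, which attracts T cells and monocytes, had 9 saline, 14 LPS and 61 poly(I:C) UMIs and was 11.1-fold higher [5.47 to 25.4]. Cxcl16, which binds Cxcr6, had 17, 82 and 54 UMIs and was 5.19-fold higher [2.97 to 9.56].

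The chemokines differed in both directions. All 24 listed summed to 114.8 CPM after saline and 322.4 after poly(I:C), 2.81-fold [2.70 to 2.92]. Of 24 listed, 8 reached 30 UMIs, of which 5 passed 2-fold upward and 1 downward. Their median log2 ratio was 2.92, and with the minimum at 100 UMIs it was 10.01. The 5 higher ones each had fewer than 30 saline UMIs and passed the minimum only through the poly(I:C) library. Their share and these medians therefore follow in part from the minimum. The 16 chemokines left out held 39 saline and 78 poly(I:C) UMIs. The lower member was Cxcl12, the Cxcr4 ligand made by brain vessels, with 66.8 CPM after saline, 10.1 after LPS and 10.8 after poly(I:C), 6.21-fold lower [5.399 to 7.163]. Cx3cl1, the fractalkine of neurons, was at 44.5 and 38.4 CPM after saline and poly(I:C), 0.864-fold [0.791 to 0.943]. The neutrophil attractant Cxcl1 stayed under the minimum, with 1 saline, 149 LPS and 21 poly(I:C) UMIs.

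Antiviral effectors made up most of the rest of the top. Rsad2, or viperin, which makes an antiviral nucleotide, had 4 UMIs after saline, 34 after LPS and 491 after poly(I:C) and was 201-fold higher [77.9 to 740]. Slfn4, a Schlafen gene, had 4, 246 and 717 UMIs and was 293-fold higher [114 to 1079]. Mx1 and Mx2, dynamin-like GTPases that block virus particles, had 11 and 22 saline, 68 and 129 LPS, and 864 and 753 poly(I:C) UMIs. They were 128.5-fold [71.4 to 258] and 56.0-fold [36.7 to 89.9] higher. For all of these the saline level rests on few UMIs, so the size of the ratio is loose while the poly(I:C) level is well counted.

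Genes of families that act on foreign RNA followed. Ifit2 and Ifit3, of a family with members that bind viral RNA, were at 1.02 and 0.932 CPM after saline. After poly(I:C) they were at 42.1 and 32.3 CPM, 41.2-fold [29.3 to 59.9] and 34.7-fold [24.2 to 51.4] higher. The same family's Ifit1bl, which lies beside Ifit3, was at 38.5 CPM after saline and 32.6 after poly(I:C), 0.847-fold [0.770 to 0.931]. Oas1k, Oas1i and Oas1a, which make the activator of RNase L, were 36.6-fold [23.4 to 60.4], 45.3-fold [20.4 to 125] and 26.8-fold [13.2 to 63.3] higher. Oasl and Oasl2 were 26.4-fold [14.8 to 52.1] and 22.1-fold [16.2 to 30.9] higher. These Oas1 copies resemble each other closely, as do the Gbp, Slfn and class I genes, so the split of reads among copies is uncertain. Eif2ak2, the kinase that stops translation on double-stranded RNA, was at 8.75 CPM after saline, 13.6 after LPS and 68.4 after poly(I:C), 7.81-fold higher [6.88 to 8.90].

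Ubiquitin-like modification and its control formed another group. Isg15, a ubiquitin-like protein, had 6 saline and 161 poly(I:C) UMIs and was 43.9-fold higher [19.7 to 121]. Its activating enzyme Uba7 and conjugating enzyme Ube2l6 were 7.70-fold [5.20 to 11.8] and 8.56-fold [5.06 to 15.3] higher. Herc6, a ligase for Isg15 in rodents, was at 24.0 CPM after saline, 38.7 after LPS and 144 after poly(I:C), 6.01-fold higher [5.55 to 6.51]. Usp18, which removes Isg15 and damps the interferon receptor, had 54 saline, 140 LPS and 1162 poly(I:C) UMIs and was 35.2-fold higher [26.8 to 47.1]. Each step of the Isg15 cycle was thus higher, with counting intervals that excluded 2-fold.

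Guanylate-binding proteins act on membranes of vacuoles that hold microbes. Gbp2 was at 0.511 CPM after saline, 11.3 after LPS and 29.1 after poly(I:C), 56.9-fold higher [35.2 to 98.3]. Gbp5 and Gbp4 were 35.9-fold [20.2 to 70.3] and 52.3-fold [19.95 to 195] higher. Rnf213, a giant ubiquitin ligase, was at 5.50, 18.0 and 92.3 CPM in the order saline, LPS and poly(I:C) and was 16.8-fold higher [14.4 to 19.6]. Ifi44, whose role is less clear, was at 1.44, 9.57 and 47.2 CPM and was 32.7-fold higher [24.4 to 44.6].

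Over the full list of interferon-stimulated genes, 79 of 92 features reached 30 UMIs. Of these, 64 passed 2-fold upward, 0 downward and 15 lay between, against 1.73% of all genes at least 2-fold higher. The median log2 ratio was 2.59, where it was -0.09 over all genes. Members such as Rsad2, Isg15 and Mx1 reached the minimum only through the poly(I:C) library, so this share follows in part from it. The list was also chosen with earlier results of these data known. All 92 features summed to 607.2 CPM after saline and 1940 after poly(I:C), 3.19-fold [3.14 to 3.25]. Some listed genes lay near 1: Daxx, a chromatin and cell death protein, was at 0.989-fold [0.844 to 1.16] and Nt5c3a, a nucleotidase, at 0.995-fold [0.880 to 1.12]. Adar, which edits double-stranded RNA and was the most counted member, was at 112 CPM after saline and 139 after poly(I:C), 1.25-fold higher [1.19 to 1.31].

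**Figure D2:**
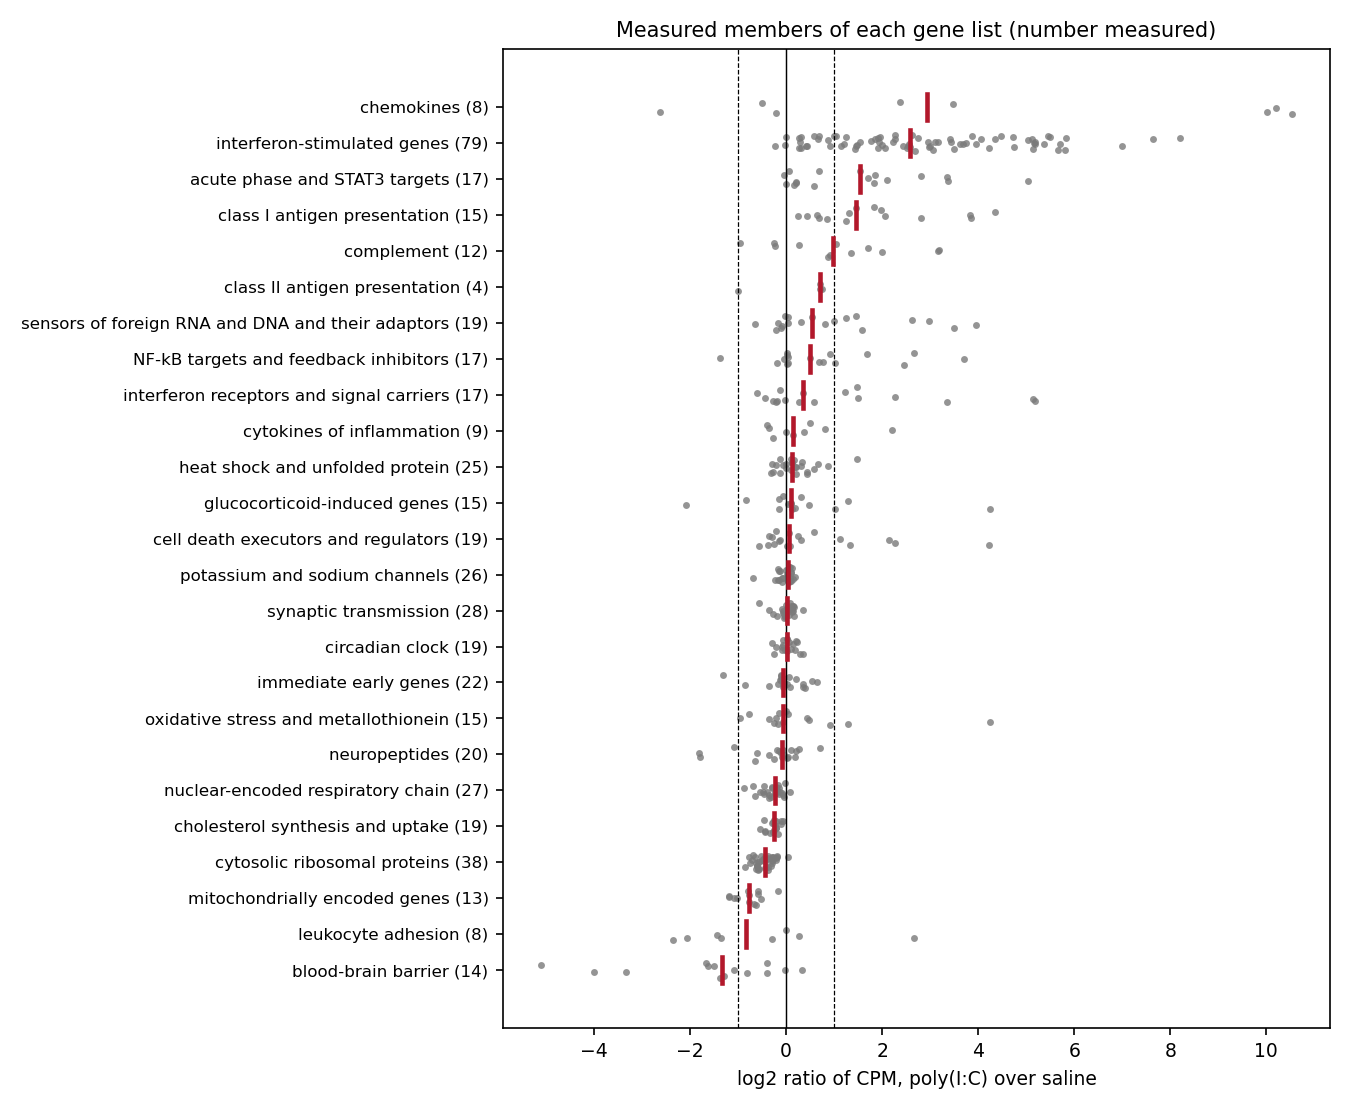
Log2 ratio of CPM (poly(I:C) over saline) of each measured member (grey points) of 25 gene lists, with the list median (red bar) and dashed lines at 2-fold; vertical scatter only separates points. Interferon-stimulated genes (median 2.59) stand to the right, blood-brain barrier genes (median -1.33) to the left, and synaptic and channel genes close to 0.

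The cytosolic RNA sensors were higher and the adaptors named here were not. Ifih1 had 109 saline, 183 LPS and 748 poly(I:C) UMIs and was 11.2-fold higher [9.17 to 13.9]. Ddx58, which encodes the sensor RIG-I, had 74, 118 and 702 UMIs and was 15.5-fold higher [12.2 to 19.99], and Dhx58 was 6.17-fold higher [4.46 to 8.67]. Tlr3 had only 23, 29 and 28 UMIs and was at 1.99-fold [1.11 to 3.62]. The adaptors and kinases Mavs, Tbk1 and Traf3 lay near 1, with Mavs at 0.939-fold [0.781 to 1.13], Tbk1 at 1.03-fold [0.956 to 1.12] and Traf3 at 1.02-fold [0.968 to 1.08]. Ikbke, a kinase related to Tbk1, was the lowest of the list at 0.6345-fold [0.508 to 0.789]. Of 19 measured sensors and adaptors, 7 passed 2-fold upward and 0 downward, against 1.73% of all genes at least 2-fold higher. The median log2 ratio of the 19 was 0.53. With a UMI minimum of 100 or other alternatives this median lay between 0.05 and 0.96.

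No interferon gene could be measured. The 8 listed interferon genes summed to 21 UMIs after saline and 11 after poly(I:C), and Ifnb1 had 2 in each. Receptor chains were not higher: Ifnar1 was at 53.3 CPM after saline, 43.3 after LPS and 39.1 after poly(I:C), 0.734-fold [0.674 to 0.798], and Ifngr1 at 0.654-fold [0.575 to 0.742]. Among the 17 measured receptors and signal carriers, 7 passed 2-fold upward and 0 downward. The leading ones were Irf7, the factor that amplifies interferon production, at 36.2-fold [22.3 to 62.8], Usp18, and Socs3 and Socs1, which block Jak kinases, at 10.2-fold [5.52 to 20.7] and 4.84-fold [2.98 to 8.13]. Irf7, with 17 saline UMIs, was measured only through the poly(I:C) library. Stat2 was at 16.0 CPM after saline and 44.5 after poly(I:C), 2.77-fold higher [2.49 to 3.09].

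Most measured genes of class I antigen presentation were higher. Of 24 listed symbols, 16 were found and 15 measured. All 15 had ratios above 1, and 10 passed 2-fold, against 1.73% of all genes at least 2-fold higher. The median log2 ratio was 1.45. Nlrc5, which switches on class I genes, had 22 saline, 164 LPS and 273 poly(I:C) UMIs and was 20.3-fold higher [13.1 to 32.9]. The peptide transporter Tap1 and the immunoproteasome subunits Psmb8 and Psmb9 were 14.5-fold [8.13 to 28], 14.2-fold [8.60 to 25.1] and 6.97-fold [4.77 to 10.5] higher. Nlrc5 and Tap1, with 22 and 13 saline UMIs, were measured only through the poly(I:C) library. The common direction, the count past 2-fold and the median of this list therefore follow in part from the UMI minimum. B2m, the light chain, was at 27.5 CPM after saline, 60.5 after LPS and 68.3 after poly(I:C), 2.49-fold higher [2.29 to 2.71]. Class II genes had 4 measured members, of which 0 passed 2-fold upward and 1 downward. This was Cd74, the invariant chain, at 0.498-fold [0.180 to 1.198].

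Inflammatory genes outside the interferon program differed less evenly. Of 17 NF-kB targets and feedback inhibitors, 5 passed 2-fold upward and 1 downward, against 1.73% and 2.5% of all genes. The highest was Birc3, an inhibitor of cell death, at 13.1-fold [6.26 to 31.6], while Nfkbia, the classical feedback inhibitor, was at 17.4 CPM after saline, 24.9 after LPS and 17.9 after poly(I:C), 1.02-fold [0.895 to 1.17]. The list median of 0.49 was 0.03 with a minimum of 100 UMIs. Of 17 acute phase and STAT3 targets, 9 passed 2-fold upward, against the same 1.73% of all genes. The median of these 17 was 1.54, or 0.59 with that minimum. Fgl2, a secreted relative of fibrinogen, stood 32.9-fold higher [17.5 to 69.6]. Lcn2, an iron-binding acute phase protein and neutrophil marker, had 6 saline, 237 LPS and 38 poly(I:C) UMIs and was 10.4-fold higher [4.345 to 29.98]. Birc3, Fgl2 and Lcn2 each had fewer than 30 saline UMIs and were measured only through the poly(I:C) library. Both counts therefore follow in part from the minimum.

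Complement and cell death genes each held a higher subset. Of 12 measured complement genes, 6 were at least 2-fold higher, led by Itgam, a complement receptor chain of myeloid cells, at 9.05-fold [5.18 to 16.9] and Cfb, of the alternative pathway, at 8.93-fold [7.003 to 11.5]. Of 19 cell death genes, 5 were at least 2-fold higher, against the same 1.73%. These 5 were Mlkl, the pore of necroptosis, at 18.6-fold [9.05 to 44.4], and the caspases Casp4, Casp12, Casp1 and Casp8. Itgam and Mlkl, with 15 and 8 saline UMIs, were measured only through the poly(I:C) library. The 3 measured neutrophil markers S100a8, S100a9 and Lcn2 were each at least 2-fold higher. Each reached the 30 UMI minimum only through the poly(I:C) library, so their common direction follows in part from the minimum. The 5 markers under it held 16 saline and 24 poly(I:C) UMIs. The summed level of all 8 neutrophil markers was 1.53 CPM after saline, 18.8 after LPS and 10.9 after poly(I:C), or 7.12-fold higher [5.23 to 9.85], with Camp at 0 UMIs after saline and poly(I:C) and Mmp8 at 0 after saline. Their part in the myeloid and acute phase values was not tested.

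A large share of the higher genes lay outside every list. Of the 260, 116 (44.6%) were in a pathway or marker list, where 3.86% of all compared genes were. Of the 144 others 94 had a symbol, and the examples here were chosen after their values were seen, as the highest lower bounds. Asb15, a SOCS-box protein best known from muscle, had 9 saline, 146 LPS and 354 poly(I:C) UMIs and was 64.3-fold higher [33.5 to 142]. Stat4, a signal carrier of interleukin 12 and interferon, had 483, 756 and 1897 UMIs and was 6.42-fold higher [5.81 to 7.11]. Zc3hav1, the zinc finger antiviral protein, was 7.16-fold higher [5.75 to 8.98], and Cd274, the checkpoint ligand PD-L1, was 5.29-fold higher [4.05 to 6.97]. Tgm2, a transglutaminase, was at 0.601 CPM after saline and 8.75 after poly(I:C), 14.6-fold higher [9.15 to 24.4].

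**Figure D3:**
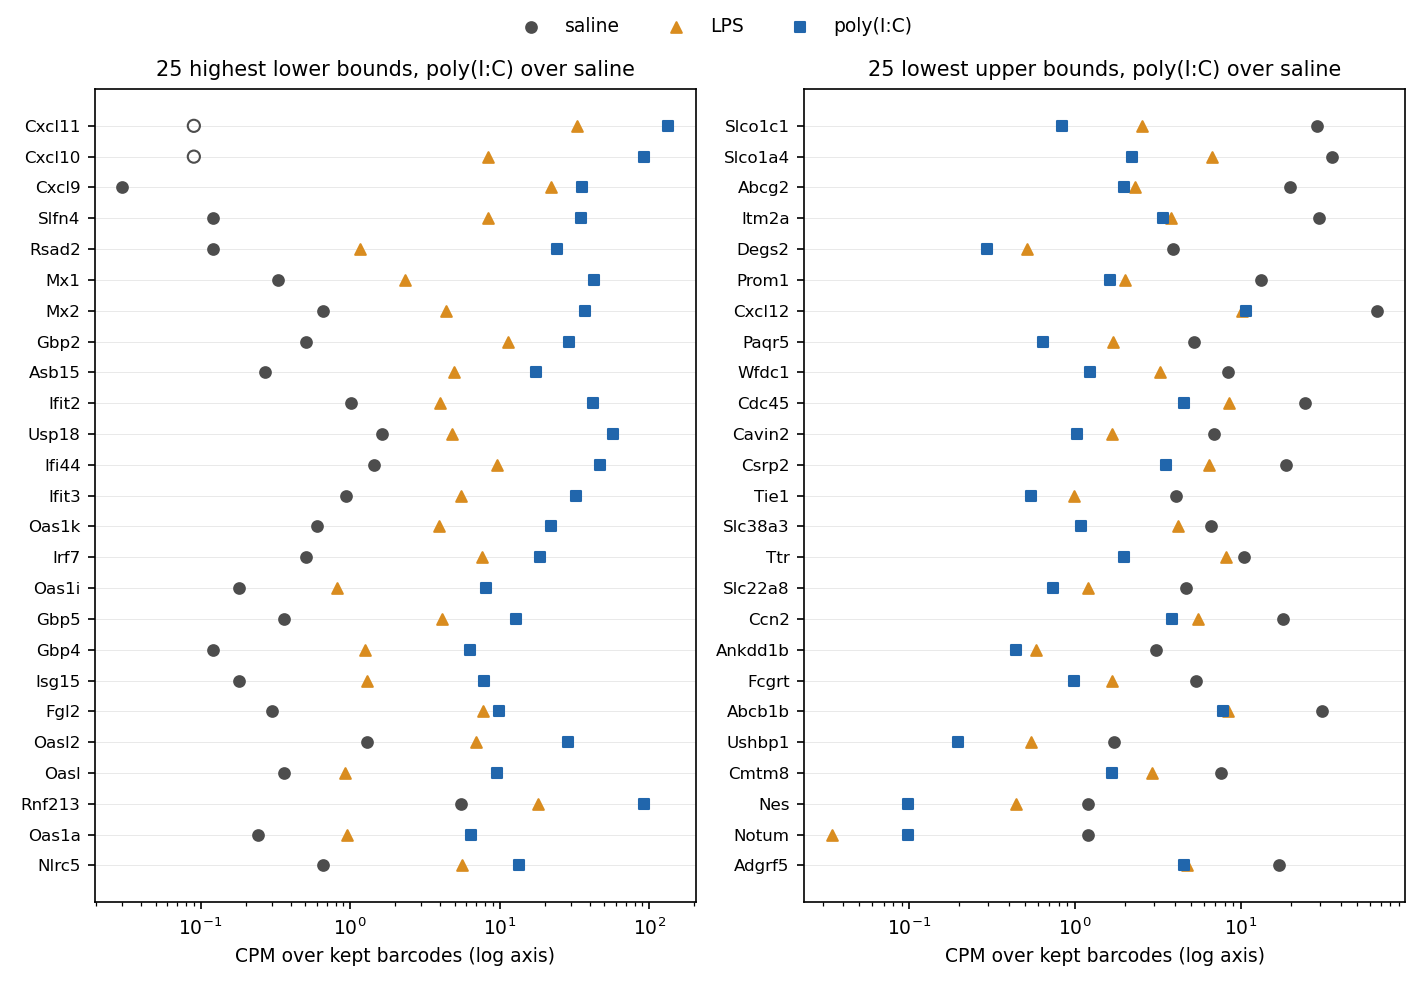
CPM (log axis) of the 25 genes with the highest lower bounds (left) and the 25 with the lowest upper bounds (right) of the ratio in the libraries of the 3 treatments; each symbol is 1 library, and open circles stand for 0 saline UMIs, drawn at the level of 3 UMIs. In the left panel poly(I:C) is the highest of the 3 levels for each gene; in the right panel saline is.

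On the lower side, genes of the blood-brain barrier led. Slco1c1, a thyroid hormone transporter, had 960 UMIs after saline, 74 after LPS and 17 after poly(I:C), or 28.9, 2.52 and 0.836 CPM, and was 34.5-fold lower [21.5 to 59.5]. Slco1a4, an organic anion transporter, had 1176, 196 and 45 UMIs and was 16.0-fold lower [11.9 to 22.0]. Abcg2, a drug efflux pump, had 661, 68 and 40 UMIs and was 10.1-fold lower [7.34 to 14.3], and Abcb1b, a P-glycoprotein, had 1023, 246 and 158 UMIs and was 3.96-fold lower [3.35 to 4.71]. A second feature of the name Abcb1b had 26, 22 and 34 UMIs and was 2.14-fold higher [1.25 to 3.71]. The glucose transporter Slc2a1 was 2.13-fold lower [1.85 to 2.45] and Bsg, or basigin, a partner of lactate transporters, 2.83-fold lower [2.61 to 3.07]. Of the 14 measured members of the barrier list, which does not hold Abcb1b, 9 passed 2-fold downward and 0 upward, and the median log2 ratio was -1.33, against 2.5% of all genes at least 2-fold lower. Tjp1, a scaffold of tight junctions that many other cells also express, was at 498 CPM after saline and 487 after poly(I:C), 1.02-fold lower [0.997 to 1.05].

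The other leading lower genes were of several kinds. Itm2a, an integral membrane protein, was at 29.7 CPM after saline and 3.39 after poly(I:C), 8.74-fold lower [6.84 to 11.3]. Tie1, an endothelial receptor kinase, had 135 saline, 29 LPS and 11 poly(I:C) UMIs. Cavin2, of caveolae, had 230, 49 and 21, and Fcgrt, the neonatal Fc receptor that carries antibodies, had 178, 49 and 20. Degs2, of sphingolipid synthesis, had 129, 15 and 6 UMIs and was 13.1-fold lower [5.88 to 36.5]. Ttr, the transthyretin of the choroid plexus, had 346, 239 and 40 UMIs, and the 7 choroid plexus markers together were at 37.9 and 19.6 CPM, 0.518-fold [0.462 to 0.580]. Cdc45, a replication gene with 2 features in the tables, had 807, 250 and 92 UMIs in the leading one and 30, 24 and 19 in the other. It neighbours Cldn5 in RefSeq order, which was not found by symbol among the counted features.

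Markers of vessel cells moved with the barrier genes, though not together. Of 8 listed endothelial markers, Flt1 and Cldn5 were not found among the counted features. The other 6 summed to 65.5 CPM after saline, 51.7 after LPS and 48.3 after poly(I:C), 0.737-fold [0.683 to 0.795]. Of them, Tie1, Emcn, Pecam1 and Tek were at least 2-fold lower, Ptprb was at 0.909-fold [0.820 to 1.01] and Cdh5, the cadherin of endothelial junctions, was 2.88-fold higher [2.28 to 3.66]. In the barcodes with fewer than 500 detected genes, which were left out, these 6 markers were instead higher, at 136.2 and 302.6 CPM, 2.22-fold [1.89 to 2.61], as were the mural (1.77-fold) and choroid plexus (1.58-fold) markers. Over all deposited barcodes the endothelial sum was at 0.861-fold [0.804 to 0.921]. In the left-out barcodes Slco1c1 was at 0.114-fold [0.0485 to 0.231] and Slco1a4 at 0.337-fold [0.208 to 0.525]. In the kept barcodes the mural cell markers summed to 91.5 and 59.9 CPM, 0.655-fold [0.6119 to 0.6997], and the erythroid markers to 59.5 and 35.3 CPM, 0.592-fold [0.543 to 0.645]. The adhesion genes held both directions, with Vcam1, which binds leukocytes, at 6.37-fold [3.81 to 11.2] and Icam2, Selplg, Pecam1 and F11r at least 2-fold lower.

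Barcodes with UMIs of at least 2 of the 6 endothelial markers were also summed alone, a choice made after the values were seen. There were 327 of these after saline (1.53% [1.37 to 1.71]) and 133 after poly(I:C) (1.01% [0.8497 to 1.201]). Within them Slco1c1 had 522 saline and 2 poly(I:C) UMIs and was 111-fold lower [30.6 to 920], and Slco1a4 and Abcg2 were 15.0-fold [9.28 to 25.9] and 14.9-fold [7.98 to 31.3] lower. Cxcl12 was 5.59-fold lower [4.50 to 7.03] and Bsg 5.85-fold lower [4.63 to 7.48]. Over all barcodes the same 5 genes were 34.5-fold, 16.0-fold, 10.1-fold, 6.21-fold and 2.83-fold lower. Since 4 of the 6 markers used to choose these barcodes were themselves at least 2-fold lower and 1 was higher, the treatments may differ in which barcodes enter. Cxcl11 had 0 and 1264 UMIs there, which was 46.3% of all its poly(I:C) UMIs.

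**Figure D4:**
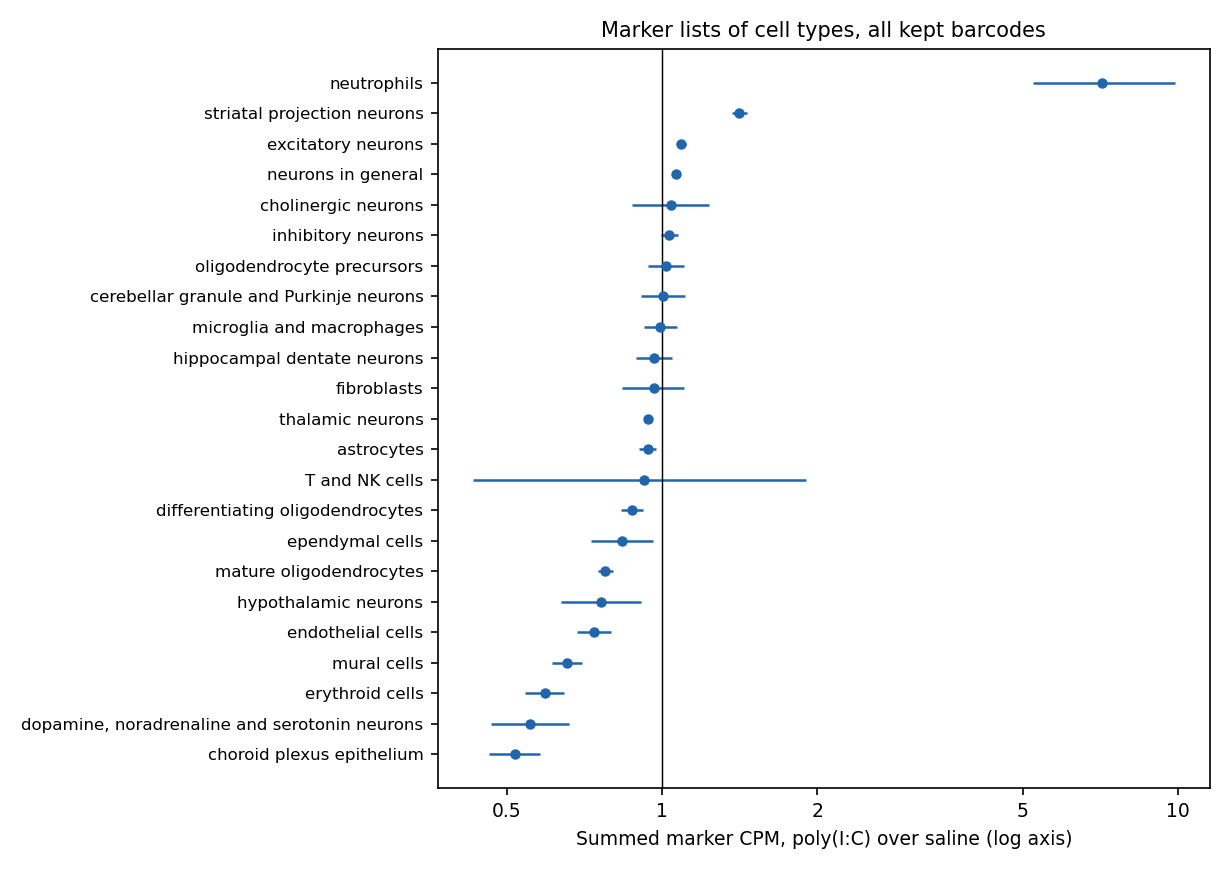
Ratio of the summed CPM (poly(I:C) over saline, log axis) of 23 marker lists with at least 30 UMIs, with exact 95% counting intervals. Neutrophil markers lie at 7.12, general neuron markers at 1.065, endothelial markers at 0.737 and choroid plexus markers at 0.518.

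Some markers of brain regions also differed between the libraries. Striatal projection neuron markers summed to 228 CPM after saline, 289 after LPS and 322 after poly(I:C), 1.41-fold [1.37 to 1.46], and all 7 had ratios above 1. Markers of dopamine, noradrenaline and serotonin neurons were at 0.555-fold [0.467 to 0.659] and those of hypothalamic neurons at 0.763-fold [0.638 to 0.909]. Of the 4 measured members of the first list, 2 were at least 2-fold lower and 1 had a ratio above 1. Of the 6 measured hypothalamic markers these numbers were 3 and 1. Cerebellar markers were at 1.004-fold [0.911 to 1.11], dentate markers at 0.964-fold [0.889 to 1.05] and cholinergic markers at 1.04-fold [0.874 to 1.24], all with intervals that include 1. Of 20 neuropeptides, 3 were at least 2-fold lower and 0 higher. These were Hcrt (orexin), Pomc and Pmch, all of hypothalamic neurons, with 40, 51 and 45 saline and 7, 9 and 13 poly(I:C) UMIs. Of all genes 2.5% were at least 2-fold lower, and of genes with 30 to 100 UMIs, as these 3 are, 10.4% were. After LPS, Hcrt and Pomc had 52 and 89 UMIs. The part of cell or region make-up in the ratios of single genes was not tested.

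Neuronal function genes differed little. Of 28 synaptic genes and 26 potassium and sodium channels, 0 were past 2-fold in either direction, and the medians were 0.02 and 0.03. Among 22 immediate early genes 1 was at least 2-fold lower and 0 higher, and 0 of 19 clock genes were past 2-fold. The largest CPM gain was that of Dpp10, a potassium channel subunit, at 7697 CPM after saline, 7655 after LPS and 8446 after poly(I:C), 1.10-fold [1.09 to 1.10]. The largest loss was in Kcnip4, another channel subunit, at 12350, 11700 and 11670 CPM, 0.945-fold [0.9402 to 0.9497]. None of the 10 largest gains and 10 largest losses reached 1.5-fold.

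Most mitochondrial, ribosomal, respiratory and cholesterol genes had ratios below 1, as did 67.1% of all 15012 genes. All 13 mitochondrially encoded genes were below 1, with a median log2 ratio of -0.77 and 4 at least 2-fold lower. Mt-cyb, a subunit of complex III, was at 152 CPM after saline, 117 after LPS and 66.5 after poly(I:C), 2.29-fold lower [2.15 to 2.43]. These transcripts are made in mitochondria, outside the nucleus. Of 38 cytosolic ribosomal protein genes, 37 were below 1 with a median of -0.43, and of 27 nuclear-encoded respiratory genes 26 were below 1 with a median of -0.24. All 19 cholesterol genes were below 1, with a median of -0.25. Of these ribosomal, respiratory and cholesterol genes 0 were at least 2-fold lower. In the left-out barcodes the summed ribosomal genes were at 1.06-fold [0.984 to 1.14] and the cholesterol genes at 0.970-fold [0.8765 to 1.07]. The mitochondrially encoded genes were at 0.871-fold [0.816 to 0.928] there and the nuclear-encoded respiratory genes at 0.923-fold [0.855 to 0.997]. With scaling by the median of ratios, which moves all values up by 0.09, these medians were still below 0.

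The higher genes were spread over barcodes in different ways. Cxcl11 was found in 696 poly(I:C) barcodes (5.31% [4.93 to 5.70]), with up to 39 UMIs in 1 barcode, and 76 barcodes held 50% of its UMIs. Usp18 was found in 985 barcodes (7.51% [7.07 to 7.97]), with at most 5 UMIs in 1, and 404 barcodes were needed for 50%. Cxcl11 occurred in 4.71% of barcodes with a Syt1 UMI and 15.5% of those without, Usp18 in 7.09% and 14.7%, and Asb15 in 2.71% and 1.65%. Of the Asb15 UMIs 96.6% and of the Oas1k UMIs 92.2% lay in barcodes with Syt1, against 65.5% for Cxcl11. Of all UMIs in the poly(I:C) library 96.5% did, so the Asb15 share was near that of all UMIs and the Oas1k share below it. Syt1 marks neuronal RNA in a droplet, not a neuron, since free RNA also enters droplets. Ttr, which neurons should lack, was found in 1.21% of saline and 0.274% of poly(I:C) barcodes with Syt1, at median depths of 1370 and 1407 UMIs. Ttr was itself 5.29-fold lower over all barcodes, so these shares do not compare free RNA between the libraries.

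**Figure D5:**
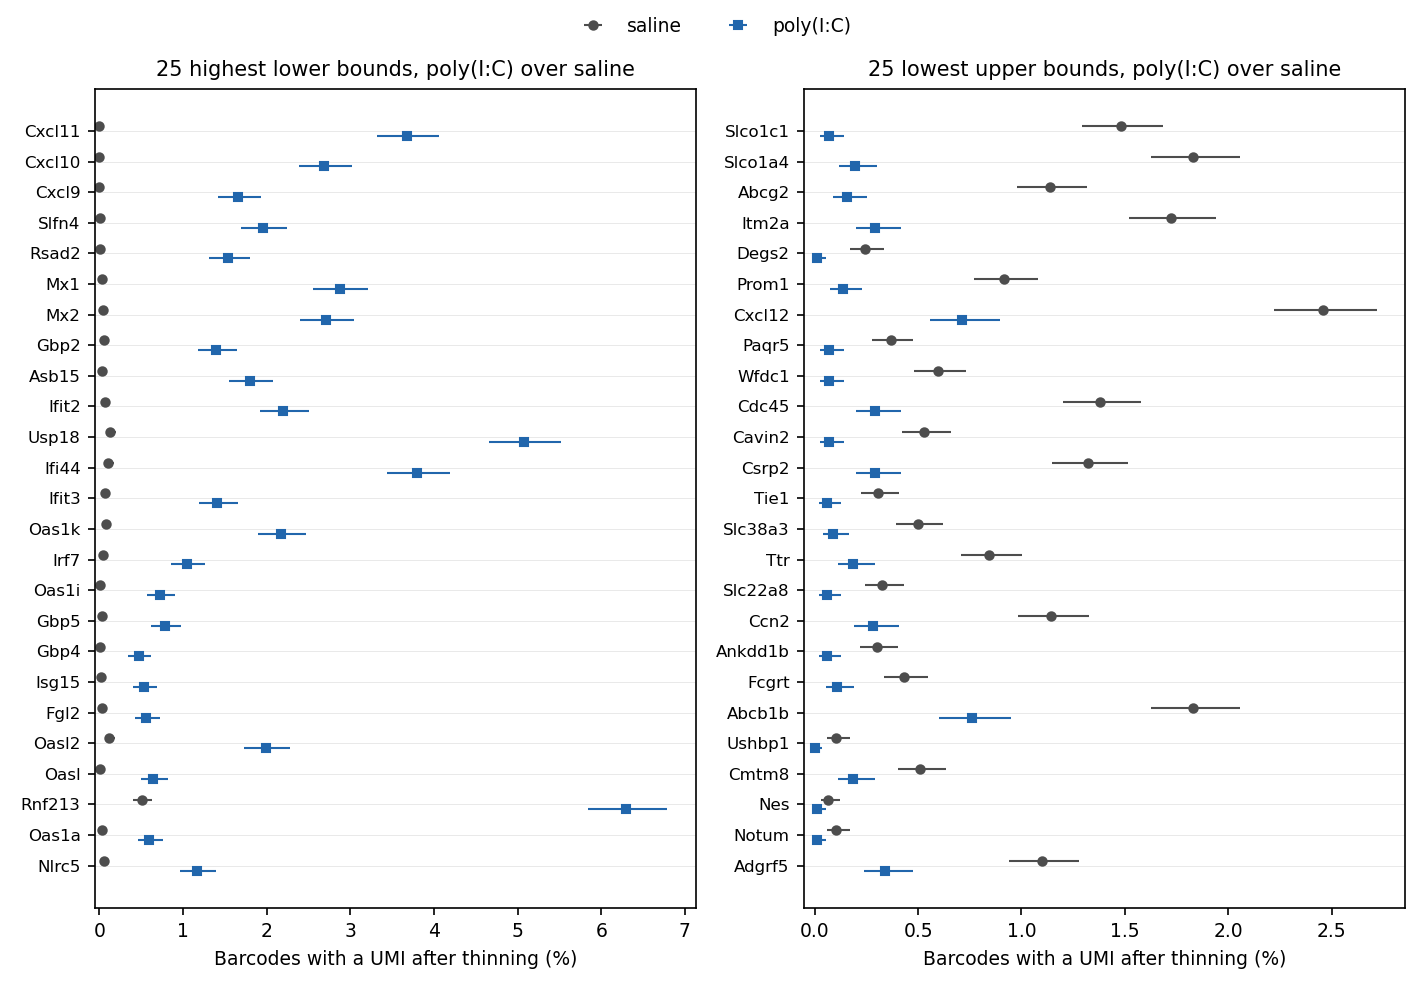
Share of barcodes with a UMI (%) after thinning each to 1000 UMIs (15285 saline and 10238 poly(I:C) barcodes), for the same 25 higher and 25 lower genes, with exact 95% counting intervals. After poly(I:C) the higher genes reach from 0.469 to 6.30%, and for Slco1c1 the share is 1.48% after saline and 0.0684% after poly(I:C).

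To compare shares at 1 depth, each barcode was thinned to 1000 UMIs, which left out 6058 saline and 2878 poly(I:C) barcodes with fewer. Then Cxcl11 was found in 0 of 15285 saline barcodes, which allows up to 0.0241%, and in 3.67% [3.32 to 4.05] of poly(I:C) barcodes. Usp18 was found in 0.131% and 5.08%, and Rnf213 in 0.504% and 6.30%. For the 79 interferon-stimulated genes together, at least 1 UMI was found in 42.8% [42.0 to 43.6] of saline and 66.1% [65.2 to 67.0] of poly(I:C) barcodes. At least 5 UMIs were found in 0.321% and 5.82%, and at least 10 in 0% and 1.88%. Without thinning, at least 1 UMI was found in 55.2% and 75.6%. Most barcodes with these genes after poly(I:C) thus held few of their UMIs.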

How the data were processed

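Nuclei of whole rat brain were read in 3 libraries, 1 per treatment, each pooled from 4 animals. The authors deposited raw UMI counts per gene and barcode, made with Cell Ranger 7.0.0 against mRatBN7.2, per the submitters' processing notes. No normalization was applied to the deposited counts. No file maps nuclei to animals.

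Here, barcodes with at least 500 detected genes were kept (21343 saline, 10491 LPS, 13116 poly(I:C); 33256195, 29353560 and 20332666 UMIs). Doublets were not removed. UMIs were summed per gene and library, scaled to CPM, and compared where both libraries together held at least 30 UMIs. Exact conditional Clopper-Pearson 95% intervals cover counting error only. A saline level of 0 was replaced by 3 counts. A call was a ratio of at least 2-fold. No test was made, since each side has 1 library.

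Of 757 list symbols, 57 were not found and 10 were found by synonym, and 2209 compared genes had no symbol. Promoters were matched by symbol. Members and lists were chosen with earlier results of these data known. Named genes are the 25 with the highest lower bounds, the 25 with the lowest upper bounds, the 10 largest CPM gains and losses, the 2 highest and 2 lowest of each pathway list, marker genes, Tlr3, Ifih1 and Syt1. Other genes were named after their values were seen. The 14 alternatives covered scaling, filters, barcode choice, thinning and added counts. The ratio and interval code was checked on simulated data. Tools were Python 3.11.15, numpy 2.4.6, scipy 1.17.1, pandas 2.3.3, matplotlib 3.10.9 and edgeR 4.0.16 (TMM factors only).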

Additional observations from a re-analysis of the deposited data

Results flagged for a closer look

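The barcodes left out for having fewer than 500 detected genes also held the leading genes. In the 1885 such barcodes of the poly(I:C) library, the 25 leading higher genes summed to 6499 UMIs (6448 CPM), against 70 UMIs (30.75 CPM) in the 4092 of the saline library, 209.7-fold higher [165.7 to 269.3]. These barcodes held 27.03% of the leading genes' poly(I:C) UMIs and 4.723% of all poly(I:C) UMIs, so the kept barcodes give a lower total for these genes. Of them, 178 (9.44%) had at least 10 UMIs of the leading genes, and 69.7% of those 178 had a UMI of an endothelial marker, against 8.12% of all 1885.

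The LPS library, otherwise given only as a level, also held the leading genes above saline. The 25 genes summed to 179.2 CPM after LPS and 17.38 CPM after saline, 10.31-fold higher [9.46 to 11.3]. They summed to 862.8 CPM after poly(I:C), and all of them were chosen for that ratio against the same saline library.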

How the results depend on the processing

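No ratio of a named gene past 2-fold reversed under the alternatives tried, but the order of the counts did: 260 higher and 375 lower genes became 149 and 141 with a minimum of 100 UMIs. With a minimum of 10 UMIs, 453 genes were at least 2-fold higher and 800 lower, and the adhesion median log2 ratio was -0.145. With the minimum of 100 UMIs the medians were 10.01 for chemokines, 0.0327 for NF-kB targets, 0.59 for acute phase genes, 0.344 for complement, 0.121 for interferon receptors and signal carriers, 0.0490 for sensors and -0.145 for adhesion genes. In the barcodes without a Syt1 UMI, the medians were 3.40 for interferon-stimulated genes, 8.89 for chemokines, 2.68 for acute phase, 0.355 for glucocorticoid-induced, 0.475 for heat shock, 0.440 for cell death and 0.0818 for channel genes. They were -1.80 for barrier, -1.96 for adhesion and -0.885 for mitochondrially encoded genes. Thinned to 1000 UMIs they were 1.18 for class I genes, 0.0763 for NF-kB targets and 0.505 for acute phase genes. With at least 1000 detected genes they were 0.0381 for NF-kB targets, 0.426 for receptors and signal carriers and 0.109 for sensors. With TMM scaling and the median of ratios, whose log2 shifts were -0.08 and -0.09, the synaptic medians were 0.0999 and 0.111, the channel medians 0.114 and 0.126, and the receptor and signal carrier medians 0.4255 and 0.437. The medians of the immediate early, clock, oxidative stress, cytokine, neuropeptide and channel lists, all near 0, changed sign under at least 1 alternative. Over all deposited barcodes, an alternative chosen after seeing the data, the summed markers of differentiating oligodendrocytes reversed, from 0.874-fold to 1.04-fold. The other summed markers that moved were then at 0.9875-fold for astrocytes, 1.195-fold for oligodendrocyte precursors, 0.8655-fold for mature oligodendrocytes, 0.861-fold for endothelial, 0.7465-fold for mural, 0.614-fold for choroid plexus, 10.47-fold for neutrophil and 0.535-fold for erythroid markers. The cause of these differences was not tested. No paired analysis was possible because each group has 1 library, so no replicate could be left out either. The level of 3 UMIs, 0.0902 CPM after saline and 0.148 CPM after poly(I:C), limits what could be detected.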

Other observations

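Of 15 measured oxidative stress and metallothionein genes, 2 were at least 2-fold higher and the median log2 ratio was -0.07. Mt2A, a metal-binding stress protein, had 16 saline, 319 LPS and 186 poly(I:C) UMIs and was 19.0-fold higher. Gfap, the intermediate filament of reactive astrocytes, had 60, 970 and 135 UMIs and was 3.68-fold higher, while the 8 astrocyte markers together were at 0.937-fold [0.902 to 0.974]. Ch25h, which makes an antiviral oxysterol and was chosen after its value was seen, had 86, 325 and 199 UMIs and was 3.79-fold higher. The glucocorticoid list held 3 genes at least 2-fold higher and 1 lower of 15. Of these 3 higher genes, 2 were Mt2A and Mt1, the same 2 as in the oxidative stress and metallothionein list.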
